A study of Rattus norvegicus with 8 samples.

Results

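The 10 genes described here encode enzymes that build or edit the sulfated sugar chains of proteoglycans, which are heparan sulfate and chondroitin sulfate. They are the xylosyltransferase Xylt1, the heparan sulfate sulfotransferases Ndst1, Hs6st1, Hs6st2, Hs3st1 and Hs3st2, the endosulfatases Sulf1 and Sulf2, and the chondroitin sulfotransferases Chst3 and Chst11. They were found by symbol among the 37209 genes of the count table, and all 10 matched. They had been chosen by their measured values in this very comparison, injured against control, so their levels and fold changes are given as a description, without a p-value.

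The study asked how the arterial wall changes after intimal injury. In male Sprague-Dawley rats, the inner lining of the left carotid artery was damaged with a balloon catheter, and the undamaged right carotid artery of the animal was its own control. Messenger RNA of 4 injured and 4 control arteries, harvested 2 weeks after surgery, was sequenced. The extraction protocol in the labels names the prefrontal cortex, whereas the tissue labels name the carotid artery. The labels number the arteries 1 to 4 in each group without stating that equal numbers came from the same rat. Each library holds the RNA of a whole artery, so that fewer cells of a type and less RNA per cell cannot be told apart.

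Heparan sulfate and chondroitin sulfate chains are attached to serines of core proteins through a short linkage of sugars that xylosyltransferases start. As a heparan sulfate chain is extended, N-deacetylase/N-sulfotransferases replace acetyl by sulfate groups and further sulfotransferases act on the products, and the resulting sulfate pattern sets which growth factors, chemokines and clotting inhibitors bind. Chondroitin sulfate is sulfated mainly at the 4 and 6 positions of its amino sugar, and in the artery wall it is carried by large proteoglycans of smooth muscle that retain lipoproteins.

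The total count lay between 11459632 and 16658089 per artery, and 3 counts, taken as the floor for counting error only, corresponded to 0.18 to 0.262 CPM, the count scaled with TMM factors to a common library size. Smooth muscle markers, 6 genes in all, summed to 35893 to 48802 CPM in control arteries 1 to 3, to 16885 CPM in control artery 4, and to 10001 to 15605 CPM after injury. Control artery 4 stood apart. Across genes its correlation with any other control on the log2 CPM scale was 0.83 to 0.852, against 0.976 to 0.978 between the other controls. Its 8 markers of sympathetic and other neurons summed to 8378 CPM, while the other controls had 2.02 to 4.30 CPM, and injured artery 3 had 1842 CPM against 2.97 to 125 CPM in the other injured arteries. All 8 of these markers were higher in control artery 4 than in every other control. The fold changes of the 9 measured enzymes and the counts of calls are therefore also given without control artery 4.

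Of the 10 enzymes, 9 had enough counts for the comparison and Hs6st2 had a count of 0 in every artery. A gene was called when edgeR's quasi-likelihood test gave a false discovery rate (FDR) under 0.05 together with a fold change above 2. By this rule 1 of the 9 enzymes was called, Hs3st2, which was lower after injury. It had enough counts for the comparison through the control arteries alone. Beside it, 10.9% of all 14359 tested genes were called, 8.31% as higher and 2.57% as lower. The median log2 fold change of the 9 was -0.15, beside -0.06 for all tested genes, and 4 of the 9 were above 0, beside 45.2% of all tested genes. Injured and control values did not overlap for 2 of the 9, Hs3st2 and Ndst1, and for 23.7% of all tested genes, the latter on the log2 CPM scale. Without control artery 4 the called enzymes were Hs3st2, lower, and Chst11, higher, where 16.2% of 14758 tested genes were called. With that artery left out of the CPM values scaled over all arteries, 5 enzymes did not overlap between the groups. Of these, Ndst1, Hs3st2, Sulf1 and Sulf2 were lower and Chst11 higher, beside 40.3% of all tested genes without overlap. The median log2 fold change of the 9 in the fit without control artery 4 was -0.24, beside 0.03 for all genes.

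Control artery 4 was at an end of the control values for each of the 9 enzymes. It was the highest control for Hs3st2, Chst11 and Hs6st1 and the lowest for Xylt1, Ndst1, Hs3st1, Sulf1, Sulf2 and Chst3. Among the injured arteries, artery 3 was the lowest for Xylt1, Hs3st1, Sulf1 and Sulf2 and the highest for Ndst1 and Hs3st2, and artery 1 was the highest for the first 4 of these genes.

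**Figure D1:**
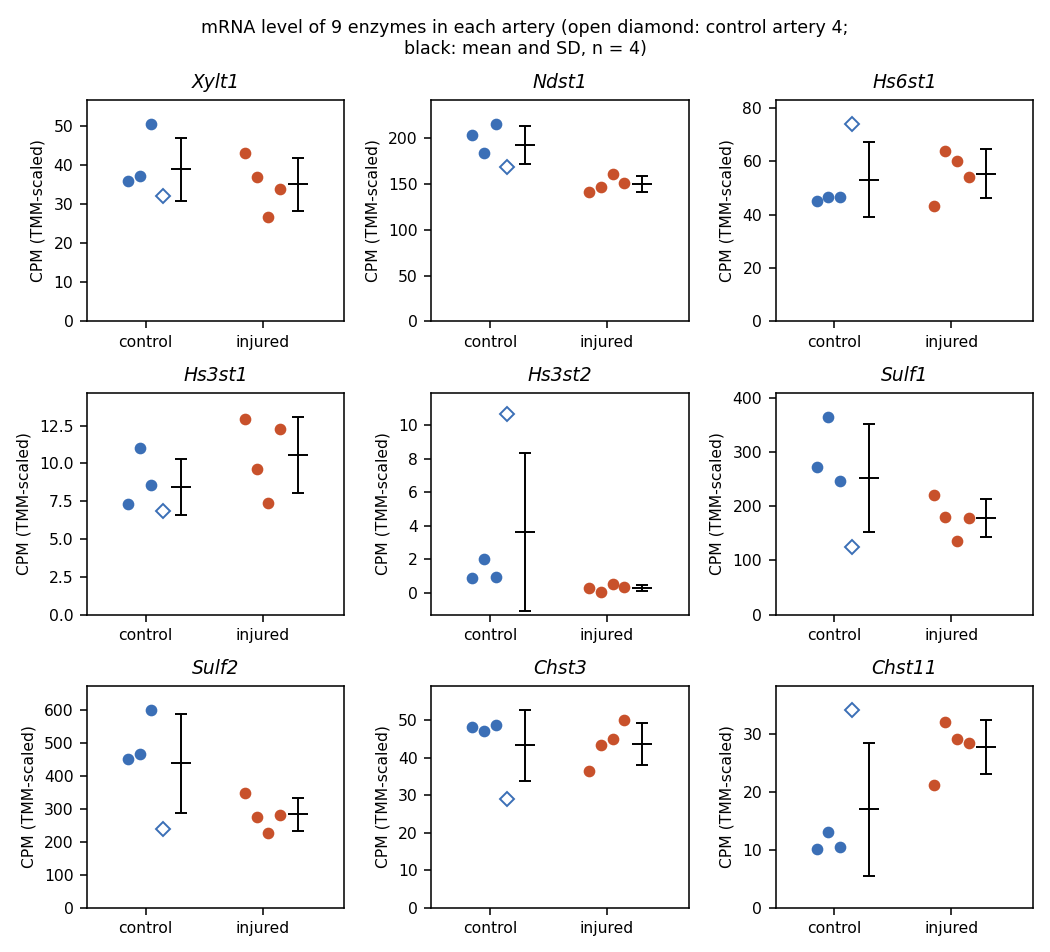
Level of the 9 measured enzymes in CPM (TMM-scaled, linear axis), one point per artery in label order, with the mean and SD (n = 4) in black at the right of each group. The open diamond is control artery 4, which lies at the top of the controls for Hs6st1, Hs3st2 and Chst11 and at the bottom for the other 6, and the SD of Hs3st2 in the controls exceeds its mean, so that its bar runs below 0.

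The promoters of Hs3st2 and Chst11 are shown because these are the enzymes with the lowest and the highest fitted change. RefSeq's promoter table (build GRCr8) holds 9 of the 10 genes, without Sulf1, each as a window of 300 bases around the gene's start. Hs3st2 lies at chr1:185387213-185387512 on the plus strand and Chst11 at chr7:22630392-22630691 on the minus strand, both printed 5′ to 3′ on the gene's strand. Capitals mark the GC box, GGGCGG, a binding motif of Sp-family transcription factors, on either strand.
Hs3st2: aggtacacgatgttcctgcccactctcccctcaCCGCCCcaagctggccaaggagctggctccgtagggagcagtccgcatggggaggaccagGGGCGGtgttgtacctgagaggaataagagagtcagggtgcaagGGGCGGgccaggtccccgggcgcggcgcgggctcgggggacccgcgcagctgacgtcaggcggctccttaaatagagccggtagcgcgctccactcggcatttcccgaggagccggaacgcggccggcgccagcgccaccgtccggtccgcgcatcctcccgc
Chst11: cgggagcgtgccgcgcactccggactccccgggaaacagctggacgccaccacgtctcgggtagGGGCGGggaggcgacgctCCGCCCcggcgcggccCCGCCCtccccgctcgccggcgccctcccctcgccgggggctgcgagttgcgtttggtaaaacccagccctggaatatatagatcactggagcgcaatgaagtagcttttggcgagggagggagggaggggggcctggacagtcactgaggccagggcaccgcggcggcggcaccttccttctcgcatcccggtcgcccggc
Each of the 2 windows held 3 GC boxes, with a G+C content of 70.0% for Hs3st2 and 71.7% for Chst11 and with 32 and 35 CpG dinucleotides. A GC box was found in 5 of the 9 windows, those of Hs3st2, Chst11, Ndst1, Hs6st1 and Chst3, and in 33.1% of all 33469 promoters of this length. The TATA box letters TATAAA were in 1 of the 9, that of Hs6st2, beside 14.2% of all promoters. The AP-1 letters TGANTCA were in 0 of the 9, beside 7.33% of all. A match is a description of the letters and not a binding site.

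Xylt1 transfers the first xylose onto the core protein and so starts chains of both kinds. It was 36.0, 37.1, 50.6 and 32.0 CPM in control arteries 1 to 4 and 43.0, 36.9, 26.6 and 33.9 CPM in injured arteries 1 to 4. The groups overlapped, with both the highest and the lowest values of 8 arteries held by number 3, the control and the injured one. The means were 38.9 ± 8.07 and 35.1 ± 6.81 CPM (SD, n = 4). On the log2 scale the fitted change was -0.15 (standard error 0.19), -0.24 without control artery 4, and 0.03 when counts were scaled by library totals alone. Its isozyme Xylt2 had a log2 fold change of 0.20 (standard error 0.17), also with overlapping groups. The ratio of Xylt1 to Xylt2 counts within an artery was 0.630 to 1.02 in the controls and 0.588 to 0.725 after injury. In such ratios, here and below, only the arteries are compared, because transcript lengths were not taken into account.

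Ndst1 is the N-deacetylase/N-sulfotransferase that starts heparan sulfate modification in most tissues. Its levels were 203, 184, 216 and 168 CPM in the control arteries and 141, 146, 161 and 151 CPM in the injured ones. Every injured artery was below every control, although injured artery 3 and control artery 4 were only 7.30 CPM apart. The means were 193 ± 20.9 and 149.9 ± 8.48 CPM (SD, n = 4), and the log2 fold change was -0.36 (standard error 0.11), and neither criterion of a call was met. Without control artery 4 the change was -0.43 (standard error 0.09). It had the smallest standard error of the 9 enzymes and stayed below 0 in all 15 alternative fits, from -0.46 to -0.18. The isozyme Ndst3 was near the floor, at 0.574 to 1.53 CPM in the controls and 0.730 to 2.25 CPM after injury, and Ndst2 had at most 14 counts in an artery. Ndst4 was listed at 0 in every artery.

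Hs6st1 adds sulfate to the 6-O position of glucosamine, a group needed for signaling by several fibroblast growth factors. The control arteries had 45.0, 46.5, 46.5 and 74.1 CPM and the injured arteries 43.1, 63.9, 60.2 and 54.3 CPM. Controls 1 to 3 were within 1.49 CPM of each other and injured arteries 2 to 4 were above them, while injured artery 1 was below and control artery 4 above every other artery. The log2 fold change was 0.06 (standard error 0.20) over all arteries and 0.26 (standard error 0.14) without control artery 4, and its sign turned in 4 of 15 alternatives. Hs6st3, an isozyme known mainly from the nervous system, had 78 counts in control artery 4 and 39 in injured artery 3, and at most 3 in any other artery.

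Hs6st2, the remaining 6-O-sulfotransferase, had a count of 0 in all 8 arteries and is listed at 0. The gene is on the X chromosome in the GRCr8 annotation, and 568 of the 581 protein-coding X genes that matched the table, or 97.8%, also had a count of 0 in every artery. On the 20 autosomes this share was 4.39% to 14.9%. Rpl10, Pgk1 and Hprt1, X-linked genes that every cell uses, were at 0 as well. Nothing about the expression of Hs6st2 in these arteries can be read from its zeros. The same limit holds for the other X-linked genes of the pathway at 0, the chondroitin 6-O-sulfotransferase Chst7 and the core proteins Gpc3, Gpc4 and Bgn.

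Hs3st1 and Hs3st2 add the rare 3-O-sulfate group, and Hs3st1 makes the sequence of heparan sulfate that binds antithrombin. Hs3st1 was 7.35, 10.99, 8.59 and 6.88 CPM in the controls and 12.9, 9.65, 7.41 and 12.3 CPM after injury. Injured arteries 1 and 4 were above all controls and the other two lay among them. The means were 8.45 ± 1.84 and 10.6 ± 2.53 CPM (SD, n = 4), with a log2 fold change of 0.32 (standard error 0.24) that stayed above 0 in all 15 alternatives and was 0.23 without control artery 4.

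Hs3st2, an enzyme known mainly from brain that does not make the antithrombin-binding sequence, was the least counted of the 9. Its counts were 12, 25, 14 and 153 in control arteries 1 to 4 and 5, 1, 9 and 4 in injured arteries 1 to 4. No injured artery reached the minimum count of 10, so the gene entered the test through the controls alone, where it was high. On the CPM scale these were 0.864, 2.05, 0.970 and 10.6 in the controls and 0.299, 0.0725, 0.505 and 0.327 after injury. Every injured artery was below every control, and control artery 4 was 5.19 times as high as the next control. The means were 3.63 ± 4.70 and 0.301 ± 0.178 CPM (SD, n = 4). The log2 fold change was -3.53 (standard error 0.98), or 11.6-fold lower after injury, and -2.04 (standard error 0.59) without control artery 4. When each artery was left out in turn, the call was lost in 5 of 8 cases, those without control artery 2 and without each injured artery, and the fold change in these 8 cases ran from -3.92 to -2.04. The ratio of Hs3st2 to Hs3st1 counts was 0.118, 0.187, 0.113 and 1.55 in the controls. After injury it was 0.00752 to 0.0682, below every control, and it reuses the same Hs3st2 counts, so it is not a separate result. The injured Hs3st2 values were near the floor, and that of injured artery 2, with 1 count, was below it. The fold change and the ratios after injury rest on these few counts.

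The other 3-O-sulfotransferases found in the count table had enough counts in too few arteries for the comparison. Hs3st5 had 0 counts in control arteries 1 to 3, 319 in control artery 4, and 10, 1, 153 and 0 in injured arteries 1 to 4. Hs3st3a1 had at most 3 counts and Hs3st3b1 at most 10 in an artery, and Hs3st6 was listed at 0. The Hs3st5, Hs6st3 and Chst13 values were highest in control artery 4 and next in injured artery 3, the arteries with the highest neuron marker sums. Hs3st2 was also highest in control artery 4 and, among the injured arteries, in artery 3, and the part of neuronal RNA in these values was not tested.

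**Figure D2:**
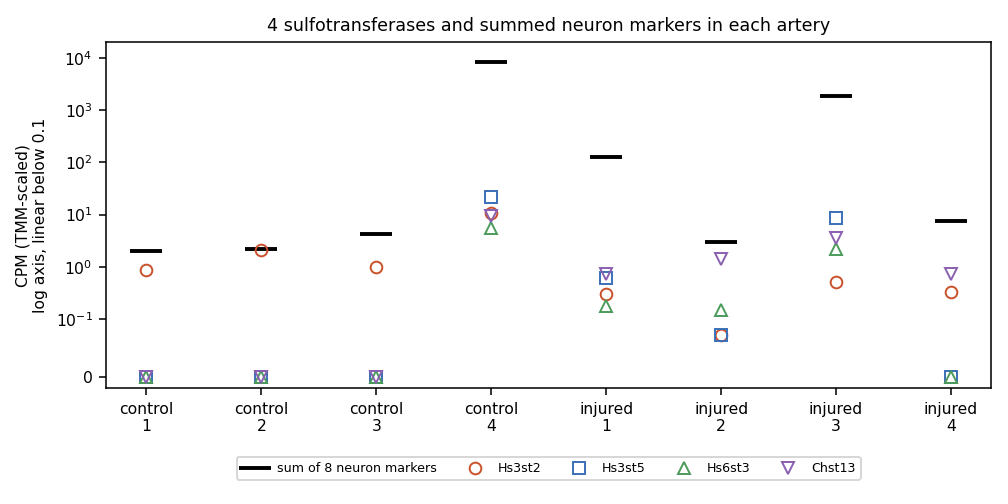
CPM (TMM-scaled, log axis that is linear below 0.1) of the sulfotransferases Hs3st2, Hs3st5, Hs6st3 and Chst13 and the summed CPM of 8 neuron markers (black bars) in each of the 8 arteries. All 5 quantities are highest in control artery 4, whereas Hs3st2 also has 0.864 to 2.05 CPM in controls 1 to 3, where the other 3 enzymes are at 0.

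Sulf1 and Sulf2 are extracellular endosulfatases that remove 6-O-sulfate groups from finished heparan sulfate chains and thereby change growth factor binding. Sulf1 was 274, 366, 247 and 125 CPM in the control arteries and 222, 181, 135 and 179 CPM in the injured arteries. Controls 1 to 3 were above all injured arteries, and control artery 4 was below all of them. Its means were 253 ± 99.5 and 179 ± 35.4 CPM (SD, n = 4), with a log2 fold change of -0.50 (standard error 0.31) and of -0.73 (standard error 0.19) without control artery 4.

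Sulf2 followed the same layout, at 450.3, 466, 599.9 and 237 CPM in the controls and 348, 275, 226 and 282 CPM after injury. Controls 1 to 3 again lay above all injured arteries, and control artery 4 lay above only injured artery 3. The means were 438 ± 150.0 and 283 ± 50.3 CPM (SD, n = 4), and the log2 fold change of -0.63 (standard error 0.28) became -0.84 (standard error 0.17) without control artery 4. Both endosulfatases were below 0 in all 15 alternatives, from -0.73 to -0.27 for Sulf1 and from -0.84 to -0.44 for Sulf2. The groups overlapped with all arteries, and without control artery 4 they did not. The summed smooth muscle markers were 35893 CPM or more in controls 1 to 3 and at most 15605 CPM after injury. In control artery 4 they were 16885 CPM, below controls 1 to 3 and above every injured artery. The 4 fibroblast markers, of which 2 had a higher mean after injury, summed to 2557 to 2804 CPM in controls 1 to 3. They summed to 1282 CPM in control artery 4 and to 1434 to 2345 CPM after injury. The part of either cell type in the endosulfatase values was not tested.

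The balance of the 2 endosulfatases was more alike among the injured arteries than among the controls. The ratio of Sulf1 to Sulf2 counts was 0.608, 0.786, 0.411 and 0.526 in the controls and 0.637, 0.657, 0.598 and 0.633 after injury. The coefficient of variation was 27.0% and 3.89%, while the means, 0.583 and 0.631, differed by less than the SD of the controls, 0.158. This difference in spread was seen after the values were known and was not tested.

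Chst3 is a chondroitin 6-O-sulfotransferase. It was 48.3, 47.2, 48.8 and 29.1 CPM in the controls and 36.6, 43.4, 45.0 and 50.2 CPM after injury. Controls 1 to 3 were within 1.63 CPM of each other, control artery 4 was the lowest of all 8 arteries, and the injured arteries lay on both sides of the first 3 controls. The log2 fold change was 0.01 (standard error 0.19) and turned in sign in 5 of 15 alternatives, reaching -0.14 without control artery 4.

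Chst11 is a chondroitin 4-O-sulfotransferase that is required for cartilage growth. The controls had 10.1, 13.0, 10.5 and 34.2 CPM and the injured arteries 21.1, 32.1, 29.1 and 28.5 CPM. Every injured artery was above controls 1 to 3, and control artery 4 was above all of them. The means were 17.0 ± 11.6 and 27.7 ± 4.68 CPM (SD, n = 4), with a log2 fold change of 0.71 (standard error 0.40), the highest of the 9. Without control artery 4 the control mean was 11.2 ± 1.59 CPM (SD, n = 3) and the log2 fold change 1.30 (standard error 0.18), and the gene was then called. Chst11 was above 0 in all 15 alternatives, from 0.52 to 1.30. Cartilage markers, 6 genes of which Matn1 was at 0, summed to 12.3 to 19.95 CPM in the controls and 52.8 to 190.4 CPM after injury, with 12.9 CPM in control artery 4. Their part in the Chst11 values was not tested.

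**Figure D3:**
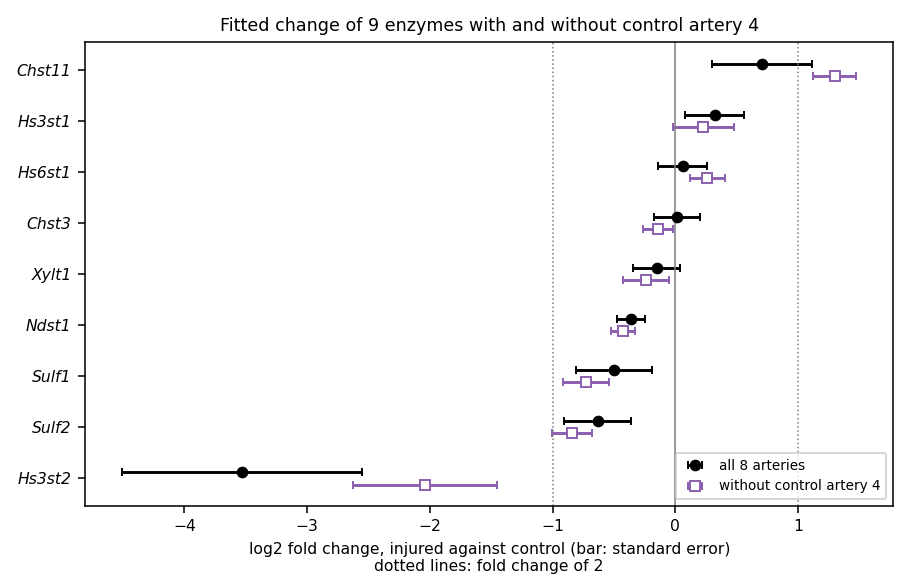
Log2 fold change of the 9 enzymes, injured against control, with the standard error as a bar, for all 8 arteries (filled circles) and without control artery 4 (open squares). Without that artery Hs3st2 moves from -3.53 to -2.04 and Chst11 from 0.71 to 1.30, and the dotted lines mark a fold change of 2.

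The ratio of Chst11 to Chst3 counts, the balance of these 4-O- and 6-O-sulfotransferases, was 0.209, 0.277 and 0.216 in controls 1 to 3 and 1.17 in control artery 4. After injury it was 0.577, 0.741, 0.646 and 0.568. The injured arteries were thus above controls 1 to 3 and below control artery 4. Chst12, another chondroitin 4-O-sulfotransferase, had a log2 fold change of -0.26 (standard error 0.22), and of -0.43 without control artery 4. The ratio of Chst11 to Chst12 was 0.128 to 0.193 in controls 1 to 3, 0.845 in control artery 4 and 0.317 to 0.667 after injury. Chst14, which sulfates dermatan sulfate, had a log2 fold change of 0.44 (standard error 0.29), which was 0.21 without control artery 4, and Chst15, which adds a second sulfate to 4-sulfated units, one of 0.26 (standard error 0.36). Chst13 had 0 counts in controls 1 to 3, 9.52 CPM in control artery 4 and 0.718 to 3.48 CPM after injury.

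**Figure D4:**
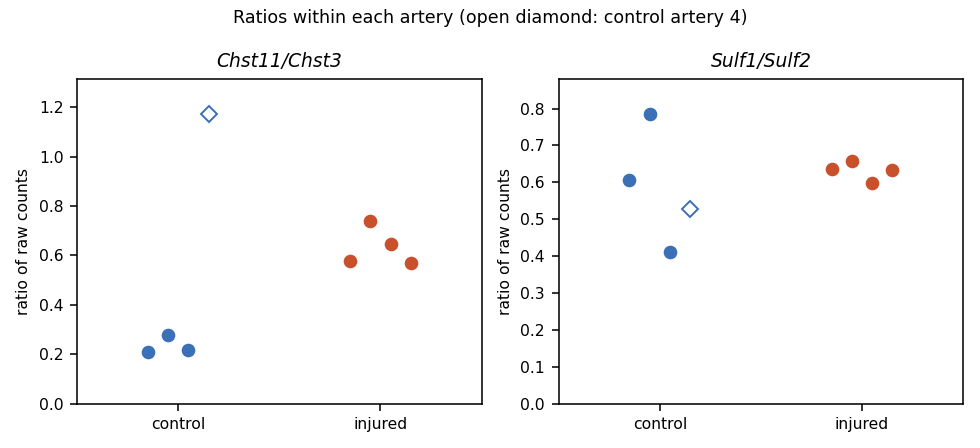
Ratio of raw counts within each artery for Chst11 to Chst3 (left) and Sulf1 to Sulf2 (right), one point per artery, with control artery 4 as an open diamond. On the left the injured arteries (0.568 to 0.741) lie above 3 controls and below control artery 4 (1.17), and on the right they span 0.598 to 0.657 within the control range of 0.411 to 0.786.

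The other enzymes of the pathway were taken as whole families by role. Of 68 such genes 66 matched the table, and Hs3st4 and Chst6 were not analysed here. Of the 66, 55 had enough counts, with a median log2 fold change of 0.12 and 34 above 0. In edgeR's test 2 of the 55 were called, both higher after injury, beside 8.31% of all tested genes. Without control artery 4, 5 were called, with Hpse, Gusb, Chst13 and B3gnt7 higher and Ust lower, of which B3gnt7 and Ust are named after their values were seen, beside 16.2% of all tested genes in that fit. Hpse and Gusb act in the breakdown of chains. Hpse, heparanase, which cuts heparan sulfate in the matrix and in lysosomes, was 2.09, 2.79, 3.33 and 1.60 CPM in the controls and 6.22, 8.49, 4.60 and 5.48 CPM after injury. All injured arteries were above all controls, and the log2 fold change was 1.34 (standard error 0.30), with an adjusted p of 0.0194 by the Benjamini-Hochberg method in edgeR's quasi-likelihood fit. Without control artery 4 it was 1.17. Hpse was no longer called without control artery 1, at 1.26, or without injured artery 2, at 1.15. Gusb, the lysosomal beta-glucuronidase, was 29.0, 25.5, 27.8 and 17.8 CPM in the controls and 51.8, 60.6, 48.7 and 66.9 CPM after injury. Its groups did not overlap either, with a log2 fold change of 1.19 (standard error 0.18) and a Benjamini-Hochberg adjusted p by edgeR of 0.00399, and it was called whichever artery was left out. Macrophage markers, 6 genes, summed to 107 to 161 CPM in the controls and 367 to 493 CPM after injury, and their part in the Hpse and Gusb values was not tested.

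With the FDR criterion alone, by which 17.2% of all tested genes were called, 7 of the 55 enzymes were called. They were Hpse, Gusb, Sgsh, Glb1, Csgalnact1 and Ugdh, all higher, and Arsk, lower, of which the last 5 are named after their values were seen. Sgsh, Glb1 and Arsk are lysosomal, Csgalnact1 starts chondroitin chains and Ugdh makes UDP-glucuronic acid, a building block of both chain types. Their log2 fold changes were 0.88, 0.60, 0.73, 0.51 and -0.65 for Sgsh, Glb1, Csgalnact1, Ugdh and Arsk.

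Of the enzymes that extend the chains, the 5 heparan sulfate genes had log2 fold changes from -0.48 to 0.48 and the 6 chondroitin genes from -0.46 to 0.73. The heparan sulfate polymerases Ext1 and Ext2 had log2 fold changes of 0.22 (standard error 0.26) and 0.24 (standard error 0.17). Ext1 was 164 to 171 CPM in controls 1 to 3 and 78.3 CPM in control artery 4, beside 138 to 209 CPM after injury, and its log2 fold change was 0.01 without that artery. The chondroitin polymerases Chsy1, Chsy3 and Chpf had 0.12, 0.41 and 0.04, with standard errors of 0.25, 0.32 and 0.14, and -0.09, 0.72 and -0.07 without control artery 4. In the linkage region, B3gat3, which adds its last sugar, had a log2 fold change of -0.0046 with 52.7 to 53.3 CPM in controls 1 to 3, 123 CPM in control artery 4 and 60.9 to 88.1 CPM after injury. Without control artery 4 its log2 fold change was 0.40 (standard error 0.14). The dermatan sulfate epimerase Dse had 0.10 (-0.09 without control artery 4), the keratan sulfotransferase Chst2 0.30 and Papss1, which makes the sulfate donor, 0.22. Hs2st1, the only 2-O-sulfotransferase of heparan sulfate and named after its values were seen, was 33.9 to 42.9 CPM in the controls and 46.7 to 81.8 CPM after injury. Its groups did not overlap, and its log2 fold change of 0.62 (standard error 0.18) met neither criterion of a call. The Benjamini-Hochberg adjusted p by edgeR was 0.0538. Without control artery 4 the log2 fold change was 0.66 (standard error 0.20) and the adjusted p by edgeR 0.0370, so the FDR criterion alone was met.

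**Figure D5:**
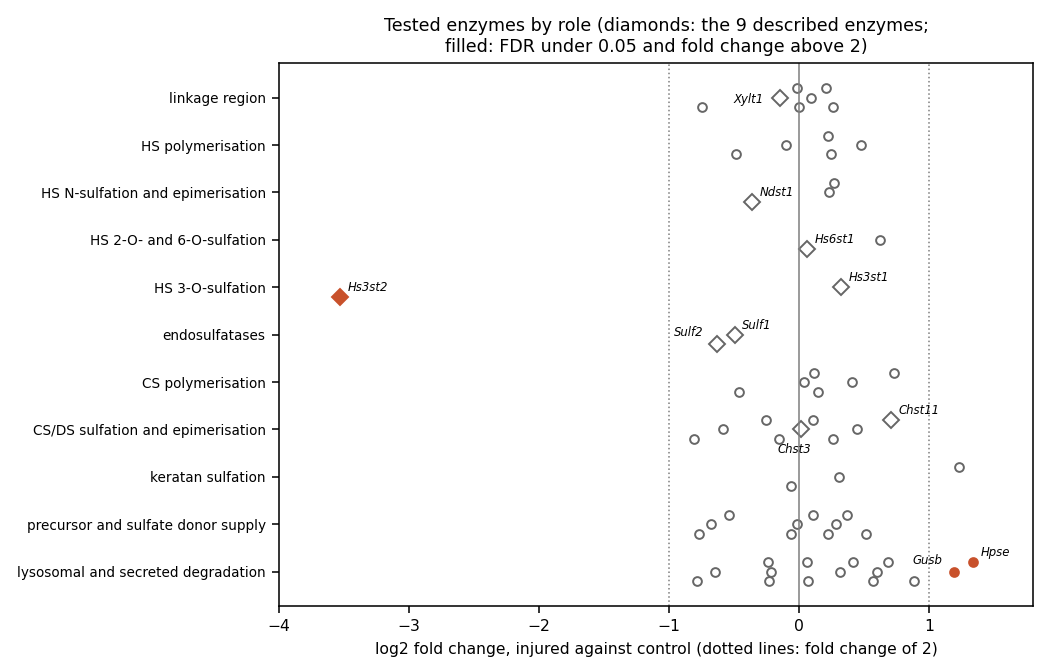
Log2 fold change, injured against control, of all tested enzymes of the pathway, one symbol per gene in rows by role (HS, heparan sulfate, CS, chondroitin sulfate, DS, dermatan sulfate). Diamonds are the 9 described enzymes, filled symbols were called, and dotted lines mark a fold change of 2, with Hs3st2 at -3.53 on the left and Hpse and Gusb at 1.34 and 1.19 on the right.

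Of 25 core proteins that carry the chains, 23 matched and 18 had enough counts, and 4 were called, beside 10.9% of all tested genes. Acan, the cartilage proteoglycan aggrecan, Esm1, a small proteoglycan of endothelium, and the cell-surface glypican Gpc1 were higher, with log2 fold changes of 6.20, 2.59 and 1.38. Dcn, decorin, the small proteoglycan of collagen fibrils, was lower by a log2 fold change of -1.15. The Dcn call was lost when any artery other than control artery 4 or injured artery 1 was left out, whereas the other 3 were called in all 8 such fits. The median of the 18 was 0.45, and without control artery 4 there were 7 calls, beside 16.2% of all tested genes. Gpc6 and Hspg2 were not analysed here.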

How the data were processed

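The members and gene lists were chosen with earlier results of these data known. The authors deposited raw read counts per gene symbol for 4 injured and 4 control carotid arteries. The submitters' processing notes name HISAT2 2.0.4, and the counting tool, the genome build and the treatment of reads shared between genes or strands are not given in the sources used here. Counts were normalized with TMM factors, filtered with filterByExpr (minimum count 10) and compared with edgeR 4.0.16 (R 4.3.3) by its quasi-likelihood test with Benjamini-Hochberg adjustment over all tested genes, after a test on simulated data. DESeq2 1.42.0 was an alternative. Names and chromosomes came from RefSeq (GRCr8), and a few genes were matched by a synonym. Besides the 10 enzymes, the text names enzymes that were called, isozymes of the 10 and chain polymerases. It also names the gene with the highest average log2 CPM of a list without a call, and the called core proteins with the 2 highest and 2 lowest changes. The p-values set the difference between the groups against the spread between arteries, each taken as independent. A sharing of rats between the groups, as in the paper's own-control design, did not enter them. The alternatives are described in the closing section, and no p-value is given for the 10 enzymes.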

Additional observations from a re-analysis of the deposited data

Results flagged for a closer look

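Within each group of 4 arteries, the gap between an end value and its nearest neighbour, as a share of the group's range, was compared with Dixon's 95% critical value for the 9 measured enzymes and the 22 other genes followed. Of 62 groups 9 passed it. Independent groups of normally distributed values would give about 3.1. The groups examined share the same arteries and their CPM values can be skewed, so the difference between these numbers is not a test. Of the 9, 7 were control artery 4, the artery with the highest neuron marker sum.

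Among the 9 enzymes it was high for Hs6st1 (74.1 against 46.5 CPM in the nearest control, a share of 0.949), for Hs3st2 (10.6 against 2.05 CPM, 0.879) and for Chst11 (34.2 against 13.0 CPM, 0.877). It was low for Chst3 (29.1 against 47.2 CPM, 0.917). Among the other enzymes, control artery 4 was high for B3gat3 (123 against 53.3 CPM, 0.991) and for Chst13 (9.52 CPM against 0 in the other controls, 1). It was low for Ext1 (78.3 against 164 CPM, 0.923).

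The remaining 2 were in other arteries. Ndst3 was high in injured artery 2 (2.25 against 0.982 CPM, 0.834), and Chst15 was low in control artery 1 (2.38 against 6.81 CPM, 0.845).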

How the results depend on the processing

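Of the 9 measured enzymes, Ndst1, Hs3st1, Hs3st2, Sulf1, Sulf2 and Chst11 kept the sign of their log2 fold change in all alternatives run, whereas Xylt1 (1 of 15), Hs6st1 (4 of 15) and Chst3 (5 of 15) did not. The number of these enzymes called was 0 with library totals only, with no low-count filter, with at least 10 counts in every artery (where Hs3st2 was not tested) and with the replicate block, 0 to 2 when one artery was left out, and 2 (Hs3st2 and Chst11) without both control artery 4 and injured artery 3, a choice made after seeing the data. DESeq2 called 1. For all genes, 1562 calls became 1007 with at least 10 counts in every artery, 2468 with the FDR alone, 1142 to 2398 when one artery was left out (2398 without control artery 4), 2473 without both arteries and 1187 with the replicate block. DESeq2 called 2150 of 16652. Of the other pathway enzymes 4 were called with library totals only, 7 with the FDR alone, 1 to 5 when one artery was left out, 6 without both arteries and 2 with the replicate block, which were Gusb and B3gnt7 and not Hpse. Of the core proteins 3 to 7 were called when one artery was left out and 8 without both, and Dcn was not called with the replicate block or with library totals only. Library totals shifted the median log2 fold change by 0.18 and the share of calls that were higher from 76.4% to 85.1%. The Chst13 value of -0.58 reversed to 7.53 without control artery 4, leave-one-out values running from -1.34 to 7.53, and to 6.72 without both arteries. With the remaining controls at 0 these depend on the prior count and are no bound. The main comparison did not treat the replicate numbers as pairs, and the labels do not state that equal numbers came from the same rat. With the group means removed, arteries 1 to 4 correlated with their counterparts at 0.301, 0.450, -0.520 and -0.416. These correlations, which have both signs, cannot decide the pairing. Control artery 4 and injured artery 3 had neuron marker sums of 8378 and 1842 CPM, and their part in these correlations was not tested. The causes of the differences between settings were not tested.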
